A study of Caenorhabditis elegans with 5 samples.

Results

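The C. elegans gene lgg-2 carried 2 ATTF-4 peaks at or near its 5' end that ranked 31 and 36 among 24869 nuclear peaks, and its relative lgg-1 carried 1 that ranked 86, while the other 8 autophagy genes described here had weaker entries in the pooled list. The account covers 10 autophagy genes, lgg-1, lgg-2, unc-51, bec-1, atg-2, atg-7, atg-9, atg-18, sqst-1 and epg-5, out of 19973 protein-coding genes on the nuclear chromosomes. The gene set was chosen by measured values, since peaks at lgg-1 and lgg-2 in these same lists led to it, so every count below is a description and carries no test. A peak belonged to a gene when its summit lay from 2000 bp upstream of the annotated 5' end to 1000 bp past the 3' end.

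Autophagy encloses cytoplasm in a double membrane, the autophagosome, and delivers it to the lysosome. A kinase starts the process, a lipid kinase complex and lipid transfer proteins build the membrane, and ubiquitin-like proteins of the Atg8 family are joined to the lipid phosphatidylethanolamine on it, where they bind cargo receptors. C. elegans has a pair of Atg8 proteins, LGG-1 of the GABARAP kind and LGG-2 of the LC3 kind, and the pathway is known there for clearing maternal granules and paternal mitochondria and for its part in longevity.

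ATTF-4, a protein with an AT-hook, was mapped by ChIP-seq, in which DNA bound by the protein is recovered with an antibody and sequenced. The animals were whole L4 larvae of both sexes, pooled, of the transgenic strain OP219, genotype unc-119(ed3) III; wgIs219, whose transgene adds GFP and FLAG to the C-terminus of the protein from C05D10.1 (attf-4). All 5 libraries formed 1 group of 3 biological replicates, without another genotype, treatment or stage to compare with, and replicate 1 had 1 library while replicates 2 and 3 had 2 each. Since whole animals were used, the tissue in which a site is occupied cannot be told. The peaks are those of ATTF-4 in that transgenic strain. Whether the antibody recovered the tagged protein alone is not given in the sources used here. Each peak has a signal value from the authors' peak caller, and ranks run from 1 for the highest signal of a list. The pooled list held 24897 entries, 24869 of them nuclear, and the replicate lists held 30000, 22227 and 30000. A final set of 173 peaks, 147 of them nuclear, had been kept by the irreproducible discovery rate, a measure of agreement between replicates. Entries outside the final set include background, and with a median −log10 q-value of 0.144 in the pooled list most of them carry little evidence on their own.

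The sequences at the 3 summits of the final set are shown first, because they carry the strongest signal of the 10 genes. Each runs 5' to 3' on the strand of its gene, 100 bases on each side of the summit, from the RefSeq copy of the genome build the lists use (ce11, WBcel235). Capitals mark 3 hexamers of the E-box kind on either strand, which are CACGTG and its variants CACATG and CAGCTG.
lgg-1, 848 bp upstream, chrII:6348467-6348667, minus strand: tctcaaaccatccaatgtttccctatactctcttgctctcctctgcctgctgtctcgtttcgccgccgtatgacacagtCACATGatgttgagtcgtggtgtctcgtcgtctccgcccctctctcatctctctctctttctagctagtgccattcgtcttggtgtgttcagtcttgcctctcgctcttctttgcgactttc
lgg-2, 322 bp upstream, chrIV:10936125-10936325, minus strand: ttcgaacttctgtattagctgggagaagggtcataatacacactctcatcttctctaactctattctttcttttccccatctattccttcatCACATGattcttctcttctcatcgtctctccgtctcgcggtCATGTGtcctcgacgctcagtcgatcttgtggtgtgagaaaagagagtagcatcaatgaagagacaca
lgg-2, intron, chrIV:10935457-10935657, minus strand: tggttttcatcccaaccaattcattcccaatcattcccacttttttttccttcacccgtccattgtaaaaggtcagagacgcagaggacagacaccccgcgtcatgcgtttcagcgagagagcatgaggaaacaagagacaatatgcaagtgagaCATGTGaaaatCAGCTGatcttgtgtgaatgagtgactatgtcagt

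All 3 sequences held CACATG, read on the other strand as CATGTG. In the lgg-1 promoter it started at position -21 from the summit, in the lgg-2 promoter at -8 and again at 33, and in the lgg-2 intron at 55. In both promoters the copy nearer the summit stood in the same 8 bases, TCACATGA. The hexamer and its 8-base form were chosen for counting only after these sequences had been read. Within 100 bp of the summit it occurred at 7.45% of all nuclear pooled peaks, 10.2% of the nuclear final set and 7 of the 35 peaks of the 10 genes. The 8-base form occurred at 0.820% of nuclear pooled peaks and at 4 of the 147 nuclear final-set peaks (2.72%). It occurred at 3 of the 35 peaks, those of both promoters and atg-2 at 1675 bp upstream. The counts of both forms include the final-set peaks in which they were read. The canonical E-box CACGTG, which HLH-30, the C. elegans relative of the autophagy regulator TFEB, binds, was found near 1 of the 35 summits, that of atg-9, and near 3.96% of all nuclear pooled summits. A repeat of GA was counted as GAGAGA on either strand and was also chosen after reading. It stood at all 3 final-set summits, at 40.8% of the nuclear final set, those 3 included, and at 15.6% of all nuclear pooled peaks. Over the 35 peaks it was near 6. A match of letters is a description and does not show which protein was bound.

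The Atg8 genes are described first. Peaks of the final set lay in the windows of lgg-1 and lgg-2 alone among the 10 genes. Of all 19973 genes, 205 had such a peak, or 1.03%, and since the genes were chosen for these peaks the share of members is not read against that figure. The gene lgg-2 had 2 of them. In all, 4 genes (0.02%) had at least 2, namely lgg-2, fic-1, Y41G9A.17 and zfp-1. The fic-1 count was made of the same 2 peaks as that of lgg-2, because the genes are divergent neighbours.

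The lgg-2 promoter peak (ce11, chrIV:10936065-10936384) had a signal of 43.3 and rank 56 in the pooled list. Its summit lay 322 bp upstream of lgg-2 and 1229 bp from the 5' end of fic-1, which encodes a Fic-domain enzyme, on the other side. In replicate 1 the entry at this place had a signal of 7.64 and rank 2149, in replicate 3 a signal of 18.3 and rank 169, and in replicate 2 no summit lay within 100 bp. The nearest summit of replicate 2 was 233 bp away, at 555 bp upstream of lgg-2 (chrIV:10936220-10936695), where it ranked 529, and its wider interval overlapped that of the pooled peak. Replicate 3 therefore ranked this promoter highest, replicate 1 placed it lower at the same position, and replicate 2 placed an entry further upstream.

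The second lgg-2 peak (chrIV:10935397-10935716, signal 42.3, rank 61) lay in an intron, 346 bp inside the gene. Replicates 1 and 3 both held it among their strongest entries, with a signal of 13.1 and rank 168 in replicate 1 and a signal of 25.3 and rank 58 in replicate 3. In replicate 2 the nearest summit was 901 bp away, so no entry stood near this peak. The remaining lgg-2 entry, 2118 bp from the 5' end, had a signal of 12.0, lay in an intron of lsm-7 and in the promoter window of dnc-1, a dynactin subunit gene, and was within 100 bp of no replicate summit.

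The lgg-1 peak of the final set (chrII:6348407-6348726) had a signal of 33.7 and rank 112, and its summit lay 848 bp upstream. No other protein-coding gene had this summit in its promoter window, here the 1000 bp before the 5' end and the first 200 bp after it, and the next gene, C32D5.10, lay 640 bp further. It was found in all 3 replicates, with a signal of 6.59 and rank 3694 in replicate 1, a signal of 7.14 and rank 627 in replicate 2, and a signal of 28.1 and rank 49 in replicate 3. Replicate 3 ranked it far above replicate 1, so the agreement was in place and not in strength. A weaker entry 135 bp upstream of lgg-1 (signal 14.1, rank 3045) was held by replicate 3 alone, at rank 217. The entries 922 and 1124 bp from the 5' end, past the 3' end of the short gene, had signals of 15.5 and 14.95, overlapped each other and lay in the promoter window of C32D5.8. The last lgg-1 entry, 1327 bp upstream, had a signal of 10.01 and was held by replicate 1 alone.

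**Figure D1:**
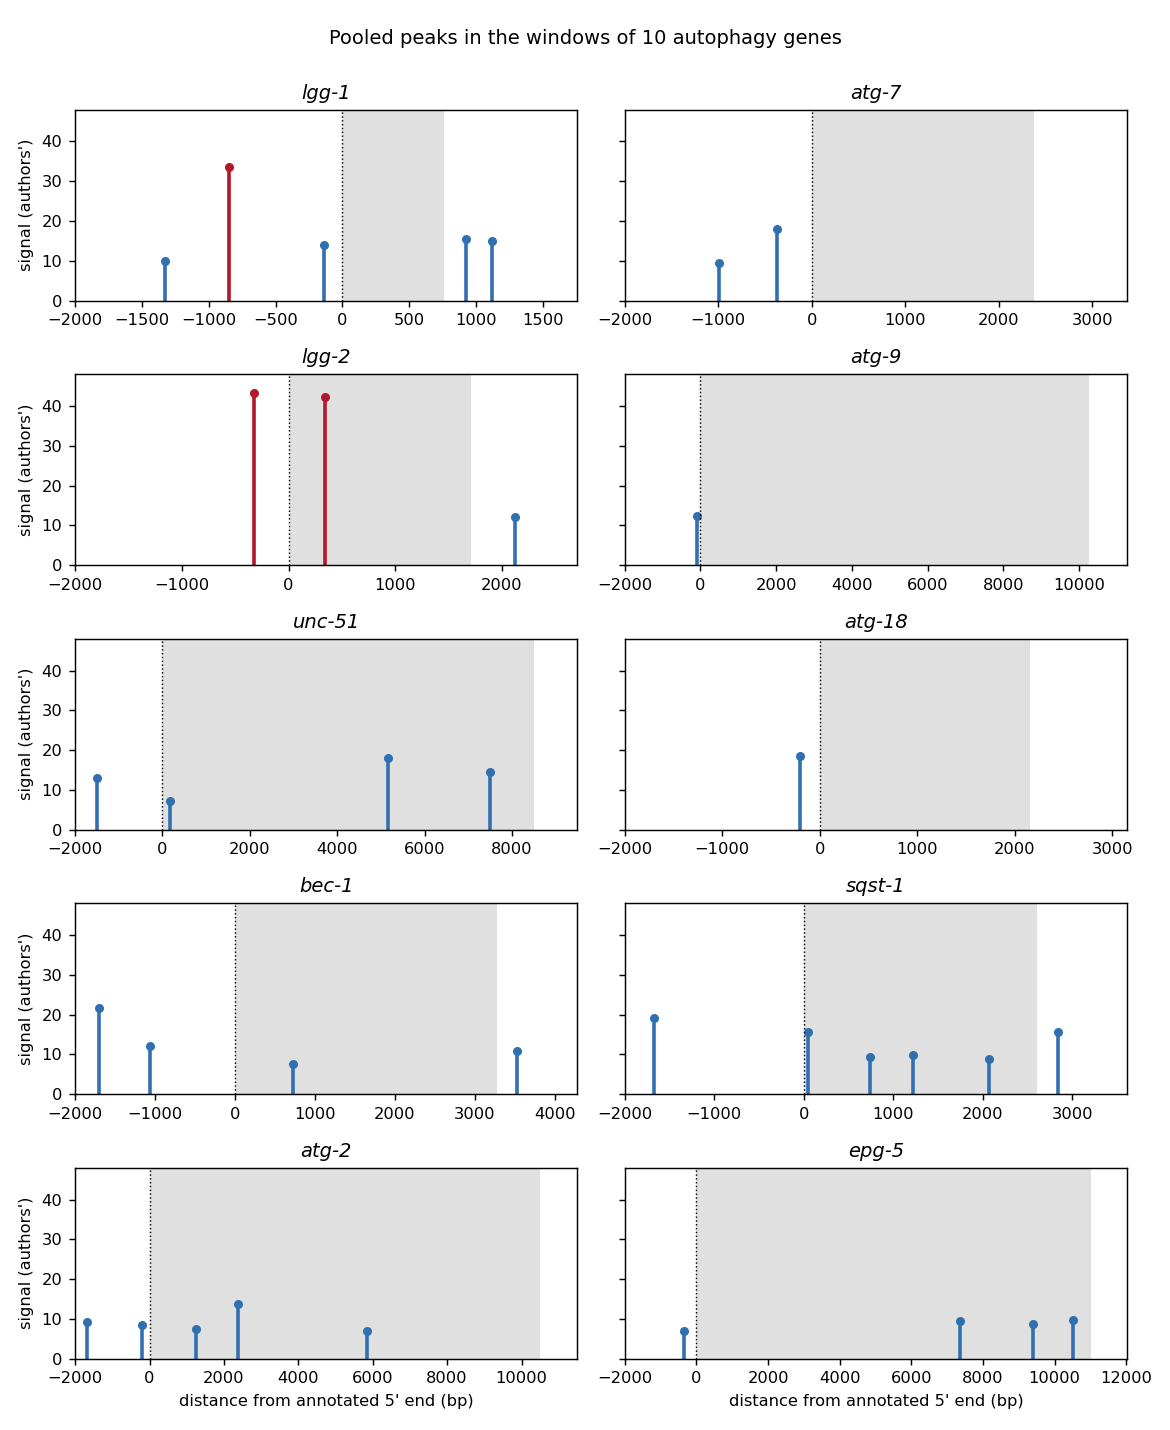
Pooled peaks of the 10 genes, with distance of the summit from the annotated 5' end in bp on the x axis and the authors' signal on the y axis. Grey spans are the gene bodies, the dotted line is the 5' end and red marks the final set. The red peaks of lgg-2 (43.3 and 42.3) and lgg-1 (33.7) stand above every blue peak, the highest of which is 21.8 at bec-1.

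The strongest entry in each gene's window, wherever it lay, was also ranked among genes within each replicate. Among 19973 genes lgg-2 ranked 208 in replicate 1, 670 in replicate 2 and 44 in replicate 3. Ordered by the worst of the 3 ranks, lgg-2 came at place 78 of all genes. The strongest entries of lgg-1 ranked 2234, 748 and 32 among genes, which placed it at 345 by the same order. The next by that order were sqst-1 at 405, atg-2 at 624 and unc-51 at 669. A longer window can hold more entries, and those of atg-2 and unc-51 spanned 13.5 and 11.5 kb, beside a median of 5027 bp over all genes. The strongest atg-2 entries of replicates 1, 2 and 3 also lay far apart, at 10387 and 305 bp from the 5' end and 1530 bp upstream. The order differed between replicates. In replicate 2 bec-1 (81) and atg-7 (88) ranked above both lgg genes, and in replicate 1 atg-7 (1097), sqst-1 (1542) and atg-2 (2069) ranked above lgg-1. That atg-7 entry of replicate 2 lay in the promoter window of the neighbouring gene let-70, upstream of it. The strongest entries of lgg-1 and lgg-2 did not lie at the same position in every replicate. For lgg-2 they lay 323 and 359 bp inside the gene in replicates 1 and 3, and 555 bp upstream in replicate 2. The strongest lgg-1 entry of replicate 1 lay 627 bp upstream. That of replicate 2 lay past the gene, 1304 bp from its 5' end and in the promoter window of C32D5.8. Only that of replicate 3, 838 bp upstream, matched the final-set peak within 100 bp.

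The conjugation of LGG proteins to lipid starts with ATG-7, an enzyme of the E1 kind. Its strongest pooled peak (chrIV:11081268-11081587, signal 18.1, rank 1124) lay 373 bp upstream, inside the annotated 3' UTR of let-70, a gene for a ubiquitin-conjugating enzyme. No replicate had a summit within 100 bp of it, but each had one close by, at 127, 121 and 111 bp. In replicate 1 the strongest atg-7 entry lay 246 bp upstream at rank 848 with a signal of 9.41. Replicate 2 had its strongest atg-7 entry at the far edge of the window, 1989 bp upstream, with a signal of 10.8 and rank 89, and the pooled peak nearest to it (signal 19.8, rank 810) fell 11 bp outside the window. This replicate 2 entry lay past the whole of let-70 and in the promoter window of that gene. In replicate 3 the strongest entry was 1089 bp upstream, in the body of let-70, at rank 7388. The 3 replicates thus had their strongest atg-7 entries at different positions.

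The kinase gene unc-51, the C. elegans Atg1, starts the pathway. Its 4 pooled peaks had signals of 17.9, 14.4, 12.9 and 7.20, and the strongest (chrV:19999159-19999478) lay in coding sequence, 5166 bp from the 5' end. This peak was held by replicate 1 with a signal of 7.28 and rank 2591 and by replicate 3 with a signal of 9.68 and rank 2121, and the nearest summit of replicate 2 was 2016 bp away. Its 201 bases around the summit had the highest GC of the 35 peaks, 55.7%.

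The bec-1 gene encodes the Beclin 1 relative that works in the lipid kinase complex of autophagosome nucleation. Its strongest peak (chrIV:5665968-5666287, signal 21.8, rank 540) was the highest outside the final set among the 10 genes and lay 1703 bp upstream, 280 bp from the ncRNA gene T19E7.25. All 3 replicates had a summit within 30 bp of it. The signal was 3.56 in replicate 1 (rank 17434), 11.1 in replicate 2 (rank 84) and 4.40 in replicate 3 (rank 20976). Replicate 2 ranked it with its top entries and the other replicates ranked it low, the reverse of the pattern at lgg-2. Around this summit the GC content was 28.4%. Of the other bec-1 entries, with signals of 12.1, 10.9 and 7.57, the one past the 3' end lay in the promoter window of skn-1, a stress response regulator gene.

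Proteins that bring lipid and membrane to the growing autophagosome are encoded by atg-2, atg-9 and atg-18. The atg-18 gene, for a lipid-binding protein of the WIPI family, had a single peak, 201 bp upstream (chrV:8631368-8631687, signal 18.4, rank 1063), and oac-29 lay 283 bp from its summit on the other side. It was found in all 3 replicates within 43 bp, yet with signals of 2.54 in replicate 1 (rank 27489), 2.37 in replicate 2 (rank 17827) and 10.5 in replicate 3 (rank 1522). Replicates 1 and 2 placed it near the bottom of their lists, at percent ranks of 8.37 and 19.8, where 100 is the strongest entry. The atg-9 gene, for a transmembrane lipid scramblase, also had a single peak, 103 bp upstream, with a signal of 12.3 (rank 5038), and replicate 3 alone held it (rank 5127). The atg-2 gene, for a lipid transfer protein, had 5 peaks with signals from 6.98 to 13.8, and the strongest, in coding sequence 2381 bp from the 5' end, was held by replicates 2 (rank 5695) and 3 (rank 11359). At atg-2 at 1675 bp upstream, where the 8-base form was found, the pooled signal was 9.12 and the nearest replicate summits were 153, 113 and 145 bp away.

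The cargo receptor gene sqst-1, the C. elegans relative of p62, had the most peaks of the 10, namely 6. The strongest (chrIV:12032453-12032772, signal 19.1, rank 905) lay 1669 bp upstream, 459 bp past the end of mrpl-51, a mitochondrial ribosomal protein gene whose 5' end is the nearest. Replicate 2 held it with a signal of 3.00 (rank 11743) and replicate 3 with a signal of 10.5 (rank 1521), and the nearest summit of replicate 1 was 122 bp away. In replicate 1 that neighbouring entry, 1547 bp upstream, was the strongest of the gene, with a signal of 8.69 and rank 1238. The entry at the 5' end of sqst-1, 52 bp from that end and in coding sequence, had a signal of 15.6 and was held by replicates 1 (rank 7230) and 2 (rank 2166). The other 4 had signals from 8.75 to 15.7 and lay in coding sequence or past the 3' end.

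The epg-5 gene, whose product tethers autophagosomes to lysosomes for fusion, had the lowest strongest peak of the 10 genes. Its 4 signals ran from 7.02 to 9.81, and the strongest ranked 10927 in the pooled list. Among all genes it ranked 9116 by strongest peak, and the median strongest peak of a gene with any was 10.8. Replicate 1 had 11 entries in this long window, replicate 2 had 1 and replicate 3 had 2.

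The sequences of the 3 strongest peaks below the final set are given for comparison, 60 bases on each side of the summit, on the strand of the gene and with the same capitals.
bec-1, 1703 bp upstream, chrIV:5666068-5666188, minus strand: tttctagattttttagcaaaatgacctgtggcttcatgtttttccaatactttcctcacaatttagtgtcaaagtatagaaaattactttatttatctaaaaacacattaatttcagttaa
sqst-1, 1669 bp upstream, chrIV:12032553-12032673, plus strand: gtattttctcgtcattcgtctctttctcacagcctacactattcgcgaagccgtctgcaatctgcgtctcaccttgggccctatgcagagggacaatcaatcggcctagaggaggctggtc
atg-18, 201 bp upstream, chrV:8631468-8631588, minus strand: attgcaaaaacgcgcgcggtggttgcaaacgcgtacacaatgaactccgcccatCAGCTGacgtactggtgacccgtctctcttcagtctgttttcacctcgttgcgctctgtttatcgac

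The bec-1 sequence was rich in A and T, with 25.6% GC, and the sqst-1 and atg-18 sequences each had 52.9%. CAGCTG stood at position -6 of the atg-18 summit, and neither CACATG nor CAGCTG was within 100 bp of the bec-1 summit. At sqst-1 both hexamers lay within 100 bp of the summit but outside the shorter stretch printed here. CAGCTG, also chosen after reading, occurred within 100 bp of 7 of the 35 summits and of 4.65% of all nuclear pooled summits. A forkhead element, GTAAACA, which DAF-16 binds, was found near 1 of the 35 summits, lgg-1 at 922 bp, against 2.47% of all. The element TGATAA, which GATA factors such as ELT-2 bind, was near 6 of the 35 against 4476 of all 24869. CCTGCG, which was taken up because it is frequent at final-set summits of these data, was near 0 of the 35, and 2.63% of all nuclear summits held it. A run of 6 A or T bases, AAAAAA on either strand, was near 17 of the 35, against 55.7% of all and 43.5% of the nuclear final set. The median GC within 100 bp of the summit was 41.8% for the 35 peaks (from 25.4 to 55.7%), 37.3% for all nuclear pooled peaks and 45.8% for the nuclear final set.

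Over the whole set, all 10 genes had at least 1 pooled peak, and 14523 genes, or 72.7%, had one, so having an entry is common among genes. The 10 windows held 35 peaks over 83.2 kb, which is 0.421 per kb, and 0.361 per kb without lgg-1 and lgg-2. All protein-coding windows together had 0.270 per kb. A peak among the 1000 strongest of the pooled list was present at lgg-1, lgg-2, bec-1 and sqst-1, and 1256 genes, or 6.29%, had one. The median signal of the 35 peaks was 12.1, from 6.98 to 43.3, against 9.35 for all nuclear pooled peaks. By rank, 26 of the 35 stood above the midpoint of the list, as did 49.9% of all nuclear pooled peaks. Without the 3 peaks of the final set the median signal was 11.4.

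**Figure D2:**
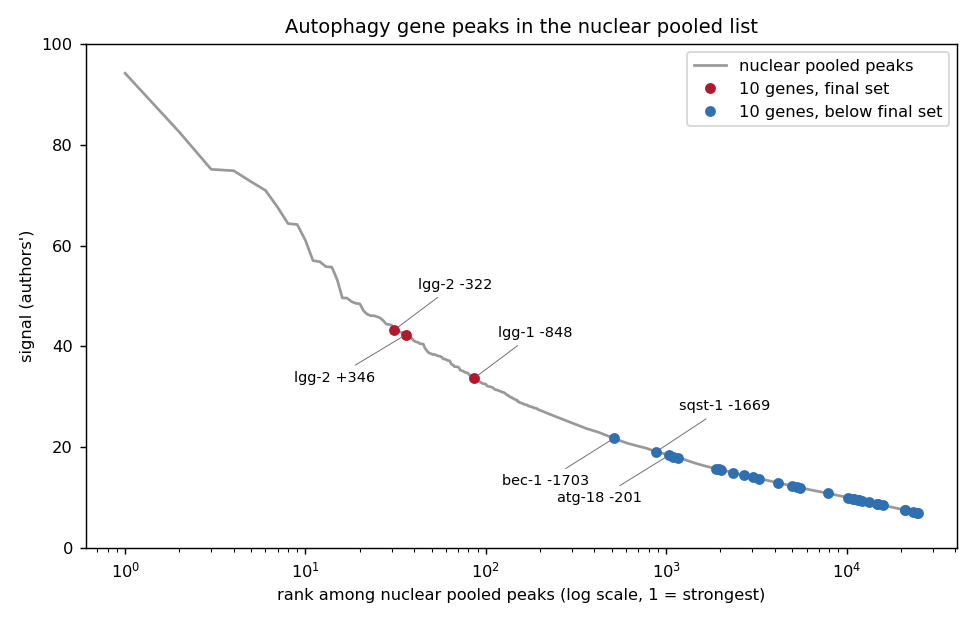
Authors' signal on the y axis against rank among nuclear pooled peaks on a logarithmic x axis, with the grey line for the nuclear list and dots for the 35 peaks. The 3 final-set peaks (red) stand at nuclear ranks 31, 36 and 86, the bec-1 peak at 513, and the others run down to the lowest ranks.

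Relative to their own genes, 15 of the 35 summits lay upstream, 6 in introns, 9 in coding sequence, 5 past the 3' end and 0 in a UTR. The upstream peaks had a median signal of 12.9 and the others 10.3. A promoter window of any protein-coding gene held 16 of the 35, and that of the gene itself 11, while 25.7% of all nuclear pooled peaks lay in such a window. The gene windows reach 2000 bp upstream by rule, so they include their own promoters. For 12 of the 35 the nearest 5' end belonged to another gene, among them the lgg-1 entries at C32D5.8 and the sqst-1 entry at mrpl-51. No tRNA, snoRNA, snRNA, rRNA or miRNA gene lay within 200 bp of any of the 35 summits. Shares over all nuclear pooled peaks are not given here for gene parts, the nearest 5' end or these small RNA genes. Those counts are therefore not read as traits of the 35.

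How many positions the replicates shared depended on the matching distance. Within 100 bp, 3 of the 35 peaks were found in all 3 replicates, those of lgg-1 at 848 bp upstream, bec-1 at 1703 bp upstream and atg-18, and 2.57% of all nuclear pooled peaks were. At least 2 replicates held 14 of the 35 and 22.2% of all nuclear pooled peaks. Within 200 bp 11 were found in all 3 (6.72% of all nuclear pooled peaks) and 20 in at least 2 (37.4% of all). With any shared base of the intervals 12 were found in all 3 (12.4% of all) and 24 in at least 2 (48.3% of all). Returning to 100 bp, the counts differed by replicate. Of the 35, 12 were found in 1 replicate only, as were 52.2% of all nuclear pooled peaks, and 9 in none, as were 25.6% of all. Replicate 1 held 16 of the 35 and 33.1% of all nuclear pooled peaks, replicate 2 held 8 and 20.1% of all, and replicate 3 held 19 and 46.0% of all. Neither lgg-2 peak of the final set was among those found in all 3, while 53.1% of the nuclear final set was. The pooled list was made from the same 3 replicates, so these shares show agreement in place and are no independent check. Without replicate 3, 4 of the 35 were held by both other replicates, and without replicate 2 it was 11. No share of all nuclear pooled peaks is given here for these counts, so they have nothing to be read against.

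**Figure D3:**
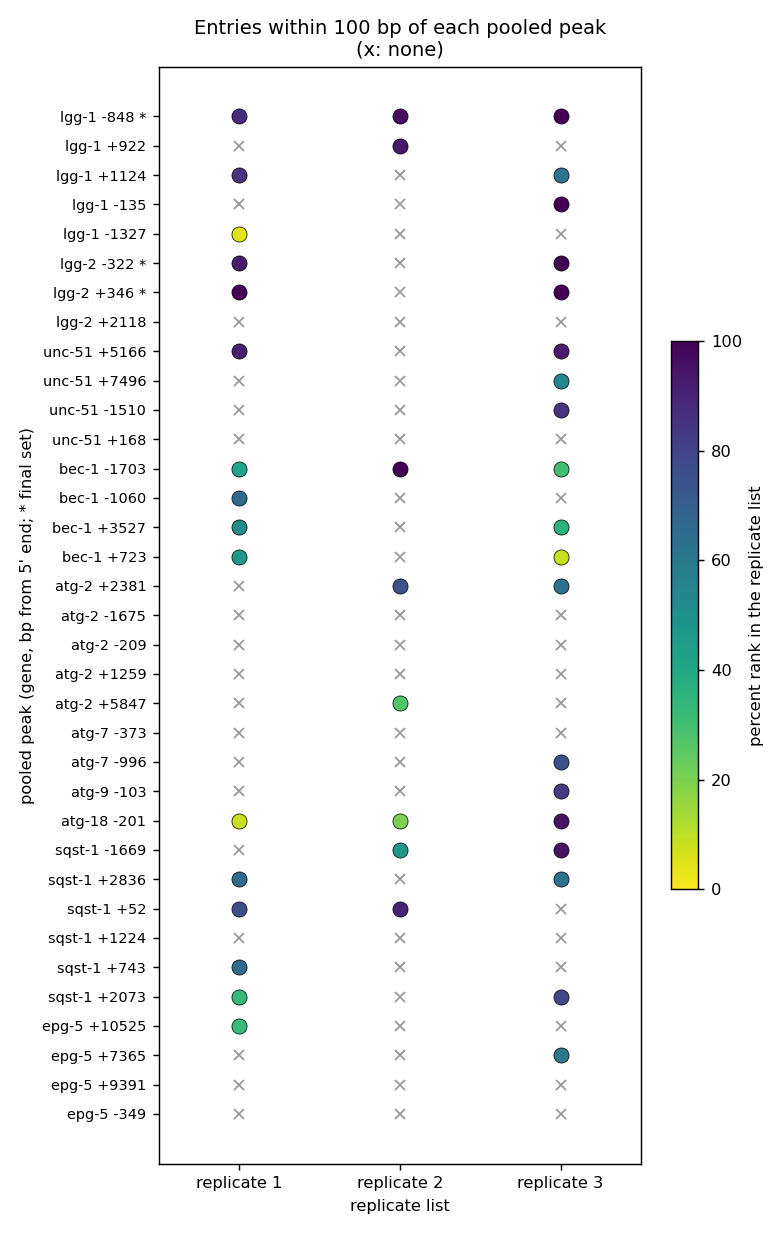
Each row is 1 of the 35 pooled peaks, named by gene and distance from the 5' end in bp, and each column is a replicate. A filled circle marks an entry within 100 bp, coloured by its percent rank in that replicate (100 for the strongest), and a cross marks none; 3 rows are filled in all columns, and 9 in none.

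Each replicate also had entries of its own in the 10 windows, 46 in replicate 1, 30 in replicate 2 and 37 in replicate 3. Of these, 16, 9 and 20 had a pooled summit within 100 bp. Per kb that was 0.553, 0.361 and 0.445 entries, beside 0.321, 0.237 and 0.321 over all protein-coding windows. Among the 1000 strongest of each replicate were 3, 6 and 5 entries of the 10 genes, at 2, 4 and 2 genes. Of all 19973 genes, 6.38%, 6.09% and 5.93% had such an entry in replicates 1, 2 and 3. In replicate 3 the genes were lgg-1 and lgg-2, in replicate 1 they were lgg-2 and atg-7, and in replicate 2 they were lgg-1, lgg-2, bec-1 and atg-7. The strongest atg-7 entry of replicate 2 was the one in the let-70 promoter window. Of the 10 only lgg-2 had such an entry in every replicate. How many of all genes had one in every replicate was not counted, and lgg-2 was chosen for its peaks in these lists. Its entry in replicate 2, 555 bp upstream, was within 100 bp of neither final-set peak of the gene.

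**Figure D4:**
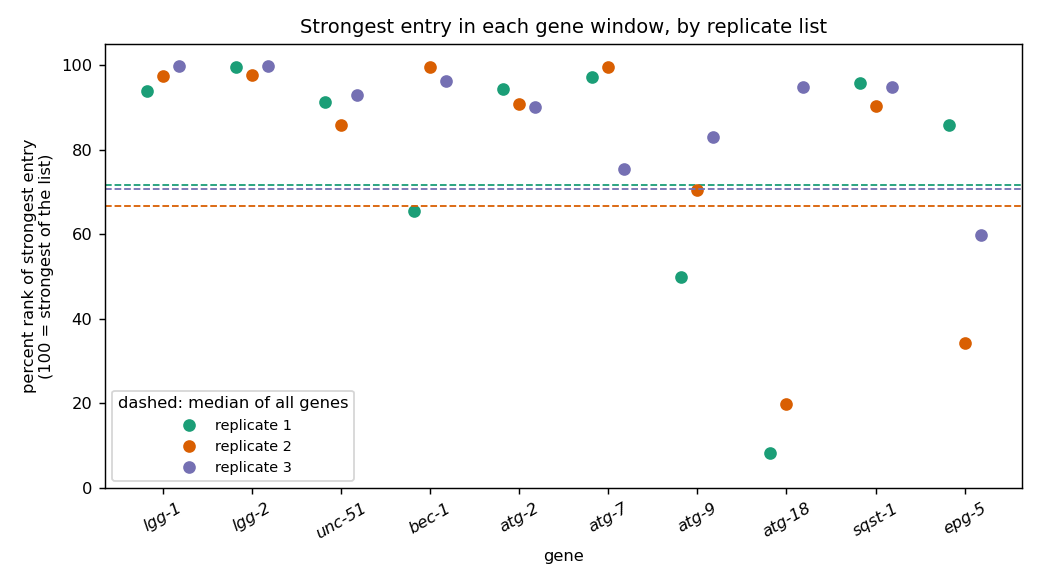
Percent rank in each replicate list (y axis, 100 for the strongest) of the strongest entry in each of the 10 gene windows (x axis), with dots for the 3 replicates and dashed lines for the median over all genes with an entry, at 71.7, 66.6 and 70.7. The lgg-1 and lgg-2 dots all lie above 93.8, whereas atg-18 has dots at 8.37, 19.8 and 94.9.

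Other genes of the pathway were read from a list of 27, among them the conjugation genes atg-3, atg-5 and lgg-3, the lipid kinase gene vps-34 and the lysosomal genes rab-7 and lmp-1. None of the 27 had a final-set peak, which 1.03% of all genes had. A pooled peak was present at 22 of the 27 and at 72.7% of all genes. The genes without one were atg-10, atg-16.2, vps-34, epg-2 and cup-5. The 55 peaks of the 27 came to 0.270 per kb, the same to 3 digits as over all genes. The median strongest peak was 11.3 over the 22 genes with a peak and 10.8 over all genes with one. For the 10 genes, whose choice was led by the peaks at lgg-1 and lgg-2, it was 18.3. Among all genes 6.29% had one of the 1000 strongest entries. Of the 27, only hlh-30, the gene of the TFEB relative, had such entries, both in an intron. One (chrIV:4024190-4024509, signal 23.2, rank 420) lay 10601 bp from the 5' end and ranked 1315, 250 and 1824 in replicates 1, 2 and 3. The other (chrIV:4019888-4020207, signal 22.0, rank 527), over the ncRNA gene W02C12.4, was held by replicates 2 and 3 at ranks 161 and 957. Neither reached the final set, whose lowest nuclear signal was 29.4.

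The window edges decided a few memberships. Just outside lay the atg-7 peak already named (11 bp outside, signal 19.8), an lgg-1 entry 81 bp past the edge (signal 12.3), an epg-5 entry 246 bp past it (signal 8.09) and a bec-1 entry 415 bp past it (signal 11.4). Just inside were bec-1 at 1703 bp (297 bp from the edge, signal 21.8), atg-2 at 1675 bp (325 bp, signal 9.12), sqst-1 at 1669 bp (331 bp, signal 19.1) and unc-51 at 1510 bp (490 bp, signal 12.9). Within 20000 bp beyond the windows there was no further final-set peak.

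The promoter peaks most like those of lgg-2 and lgg-1 were sought among the 60 other nuclear final-set peaks in promoter windows, by the distance between percent ranks in the 3 replicates. The nearest to the lgg-2 promoter peak was that of lin-23, which encodes an F-box protein, at 933 bp upstream, with a distance of 1.26 and with rank 1773 in replicate 1 and rank 140 in replicate 3. Next came sor-1 (581 bp upstream, distance 6.66) and serp-1.1 (299 bp upstream, distance 6.68). Like lgg-2, these 3 had no replicate 2 summit within 100 bp. In the distance an absent summit counted as a percent rank below every entry, so this likeness follows from how the distance was made. For lgg-1 the nearest were lin-14, a regulator of larval timing (193 bp upstream, distance 4.81), rpl-35, a ribosomal protein gene (458 bp upstream, distance 5.81), and ska-3 (96 bp upstream, distance 6.43). The ska-3 peak also lay in the promoter window of rps-12, another ribosomal protein gene. The lin-14 peak ranked 2257, 733 and 51 in replicates 1, 2 and 3, close to the ranks of the lgg-1 peak. The likeness is of ranks over 3 replicates and says nothing of function.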

How the data were processed

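ATTF-4 ChIP-seq of whole L4 larvae was read from peak lists on ce11 (WBcel235). The authors made each replicate list from 1 alignment per biological replicate with a control, the pooled list from all 3 alignments, and the final set from these by IDR, as their deposited notes state. The signal values and the −log10 q-values are the authors' own, as deposited; caller and aligner: not given in the sources used here. The lists hold no read counts, so depth is unknown, and signals of separate lists were not compared, only ranks (mitochondrial entries included). Lists on ce10 were not used.

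Genes came from Ensembl release 115 and sequence from RefSeq. Summits were counted from 1 and matched between lists within 100 bp. The replicates are the ones the labels number as biological. The 10 genes, the list of 27, the windows and the alternatives were chosen with earlier results of these data known. Named genes were the 10 with each strongest peak in full, the gene with the nearest 5' end, members of the 27 with a peak in the final set or the 1000 strongest, and the 3 most like peaks. Other neighbours, and the motifs marked so in the text, were chosen after the values or sequences were seen. Window counting and summit matching were tested on simulated data and recovered every planted entry. No statistical test was run. Python 3.11.15, numpy 2.4.6, pandas 2.3.3 and matplotlib 3.10.9 were used.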

Additional observations from a re-analysis of the deposited data

How the results depend on the processing

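No paired analysis was possible because the libraries form 1 group and no result comes from a test. Still 2 genes had a final-set peak with windows of 1000 or 5000 bp upstream and with promoters alone. With gene bodies alone 1 gene kept one, 6 genes had a pooled peak and 15 peaks were counted, or 0.282 per kb. Promoters alone gave 11 peaks, or 0.916 per kb. No density over all genes is given here for promoters or gene bodies alone, so these figures have nothing to be read against. Entries at the highest −log10 q-value were 3, at 2 genes, or 0.0361 per kb, out of 243 such entries in the pooled list. Agreement between replicates depended on the matching. Peaks found in all 3 numbered 11 within 200 bp, 12 with any shared base and 0 among the 1000 strongest entries of each list. Peaks found in at least 2 numbered 8 within 50 bp, 24 with any shared base and 2 among the 1000 strongest. With each replicate left out in turn, the peaks found in both others, which answers both counts, ranged from 4 to 11. Without replicate 1 it was 5, without replicate 2 it was 11 and without replicate 3 it was 4. Shares over all nuclear pooled peaks are not given here for 50 bp, the 1000 strongest or replicates left out. The counts under those settings have nothing to be read against. The narrower windows and shorter lists hold fewer entries by construction; why the replicates placed summits apart was not tested. Median GC was 39.6% within 50 bp of the summit and 37.1% within 250 bp, beside 41.8% within 100 bp. The comparison with all nuclear pooled peaks is given at 100 bp only. Median signal was 14.2 above the list's midpoint, and that cut raises the median by construction. Depth is unknown, so an absent entry does not show an absent site, and 3 replicates limit every statement.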
